A study of Mus musculus with 10 samples.

Results

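Intergenic distal H3K4me1 regions are stretches of chromatin that carry monomethylated lysine 4 of histone H3 away from annotated genes. They were mapped in Glast+ cells of the mouse retina. A region was a run of bases covered by an H3K4me1 island, the caller's name for an enriched stretch, in both experiments. It had no base in an H3K4me3 or H3K27me3 island of either experiment, and it lay outside protein-coding and lncRNA genes and over 2.5 kb from their ends. Of 33380 runs covered in both experiments, 2355 met this rule (7.06%). The regions were thus chosen by their measured H3K4me1, H3K4me3 and H3K27me3 islands, so their number, width and place are descriptions without a test.

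The study profiled H3K4me1, H3K4me3, H3K27me3 and H3K9me3 by ChIP-seq in Glast+ cells of C57BL/6 mice at postnatal day 28, with 2 experiments per mark, Exp1 and Exp2, and no treatment. Glast, the product of Slc1a3, is a glutamate transporter on Müller glia, which span the retina and support its neurons, and serves to isolate them. The labels do not say how many animals each experiment pooled, so part of the spread between them may be technical. Selection by Glast limits the cells as a model of Müller glia, since other retinal cells can remain in such a preparation. Of the genes listed as markers, 22 of 24 for Müller glia and 22 of 25 for rods had an H3K4me3 island at a gene end in both experiments, against 3 of 14 for microglia and 4 of 14 for endothelium and pericytes. It was so for 13 of 13 cone, 15 of 16 bipolar, 13 of 20 ganglion and 8 of 13 amacrine cell genes. For astrocytes and oligodendrocytes the count was 2 of 12. Over all protein-coding genes the share was 58.6%. By this mark the Müller glia genes did not stand apart from those of rods, cones and bipolar cells. A bulk preparation cannot tell a mark in few cells from a weak mark in many, and the part of other cell types in the regions was not tested. The lists held 52342 H3K4me1 islands in Exp1 and 37200 in Exp2, and the depth behind them is unknown because the files hold no read counts.

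H3K4me1 is deposited by the KMT2C and KMT2D enzymes, mostly at enhancers and on the flanks of promoters. An enhancer is a stretch of DNA that binds transcription factors and raises the transcription of a gene, which can lie far away and need not be the nearest. H3K4me1 alone marks enhancers that are active, primed or formerly used. Acetylation of lysine 27 of histone H3, not analysed here, is the mark commonly used to tell them apart.

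The letters of the regions themselves were not used here. Within the regions lay 1 microRNA gene, Mir8096, whose hairpin (chr1:85751948-85752074, plus strand, GRCm38.p6) sat wholly inside a region of 3 kb on chromosome 1, 85749601 to 85752600. The H3K4me1 islands there were 3.2 kb wide in Exp1 and 3 kb in Exp2, and the nearest protein-coding gene, A630001G21Rik, was 12.9 kb away. The mature miRNA is shown, from RefSeq, with its seed (bases 2 to 8) in capitals, since its gene lay within a region. Other H3K4me1 runs were not searched for miRNA genes here.
mmu-miR-8096: gGGCACGGuagcugaagagu

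Promoters of 4 genes nearest to regions described below are shown as the 250 bases before a start site, the farthest 5′ of those in the RefSeq promoter table, read 5′ to 3′ on the strand of the gene (RefSeq, GRCm38.p6). They show the start sites beside which the regions lie, for a gene of glia (Slc1a3), of the eye field (Six3), of photoreceptor and bipolar cell fate (Otx2) and of the immediate early response (Fos). Capitals mark matches, on either strand, to the TATA box TATAAA, the CCAAT box CCAAT, the Sp1 box GGGCGG, the OTX and CRX core TAATCC and the AP-1 motif TGANTCA. None of these motifs overlaps another in the 4 windows. The windows of Slc1a3, Otx2 and Fos adjoin the annotated gene, while that of Six3 lies inside it (annotated from 85613608 to 85626191), so the Six3 window is not upstream of the whole gene.
Slc1a3 (chr15:8710808-8711057, minus strand): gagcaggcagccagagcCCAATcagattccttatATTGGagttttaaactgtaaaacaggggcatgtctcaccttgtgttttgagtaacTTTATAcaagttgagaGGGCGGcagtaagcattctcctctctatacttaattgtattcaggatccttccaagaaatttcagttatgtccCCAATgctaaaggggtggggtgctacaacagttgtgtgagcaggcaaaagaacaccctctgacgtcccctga
Six3 (chr17:85620584-85620833, plus strand): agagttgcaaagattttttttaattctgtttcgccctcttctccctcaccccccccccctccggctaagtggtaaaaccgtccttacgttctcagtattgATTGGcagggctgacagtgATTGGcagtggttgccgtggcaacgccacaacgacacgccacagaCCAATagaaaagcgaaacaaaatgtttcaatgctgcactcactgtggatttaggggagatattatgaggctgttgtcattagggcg
Otx2 (chr14:48667645-48667894, minus strand): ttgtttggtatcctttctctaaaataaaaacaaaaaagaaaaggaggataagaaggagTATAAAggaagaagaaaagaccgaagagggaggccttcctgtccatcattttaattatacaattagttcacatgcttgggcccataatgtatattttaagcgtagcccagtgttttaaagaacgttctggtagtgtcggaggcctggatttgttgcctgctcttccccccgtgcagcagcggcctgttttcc
Fos (chr12:85473640-85473889, plus strand): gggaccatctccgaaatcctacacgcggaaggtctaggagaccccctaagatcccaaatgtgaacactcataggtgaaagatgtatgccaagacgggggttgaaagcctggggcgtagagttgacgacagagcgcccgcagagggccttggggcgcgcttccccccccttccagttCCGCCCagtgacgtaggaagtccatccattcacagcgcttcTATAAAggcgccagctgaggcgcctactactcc
H3K4me3 islands overlapped all 4 windows in both experiments, 6 and 4.8 kb wide at Slc1a3 (Exp1 and Exp2), 20.4 and 20.6 kb at Six3, 18.2 and 18.4 kb at Otx2 and 7 and 6 kb at Fos. H3K4me1 islands overlapped the Fos window in both experiments, 18.4 and 7.6 kb wide, and the other 3 windows in Exp1. The windows held 3 CCAAT boxes each at Slc1a3 and Six3, 1 TATA box each at Slc1a3, Otx2 and Fos, and 1 Sp1 box each at Slc1a3 and Fos. The OTX and CRX core and the AP-1 motif had no match in these letters.

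The regions were narrow, and the islands that held them were mostly wider in Exp1 than in Exp2. The shared run had a median width of 2.2 kb, with quartiles of 1.6 and 2.8 kb and a range from 0.2 to 13.6 kb, and the 2355 runs covered 5.66 Mb in all. The Exp1 island that held a region had a median width of 3.6 kb and the Exp2 island 2.6 kb. The Exp1 island was the wider at 1711 regions and the Exp2 island at 508, and they were equal at 136. A region filled a median of 64.7% of its Exp1 island and 100% of its Exp2 island, and 1372 regions were a whole Exp2 island. The Exp1 and Exp2 widths had a Spearman rho of 0.371 across regions, and the authors' p-values 0.535, given as descriptions because islands of a library share its depth. The p-values quoted here are the authors' own, with medians of 1.43e-32 in Exp1 and 5.68e-11 in Exp2, and 1 region in Exp1 and 6 in Exp2 had an island with a p-value above 0.05.

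**Figure D1:**
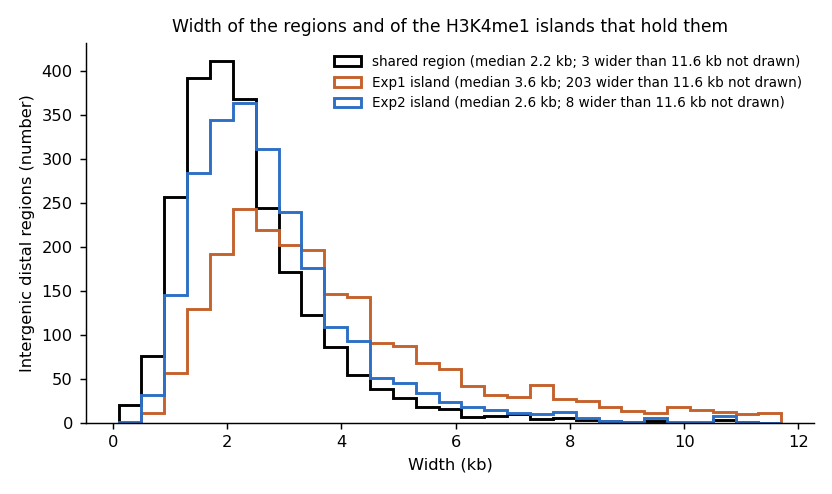
Number of intergenic distal regions (vertical axis) by width in kb (horizontal axis), for the run shared by both experiments (black) and for the H3K4me1 island that holds it in Exp1 (orange) and Exp2 (blue). The shared runs and the Exp2 islands peak near 2 kb, and the Exp1 islands spread to greater widths, with medians of 2.2, 2.6 and 3.6 kb.

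An island can reach further than the region cut from it. Of the regions, 219 shared their Exp1 island with another region, against 67 for Exp2, so that neighbouring regions are not separate islands in each experiment. The Exp1 island behind 140 regions touched a gene and that behind 158 touched H3K4me3 elsewhere along its length. For Exp2 these numbers were 17 and 21. Where the whole island of each experiment had to meet the rule, 1994 regions were left. Of the alternatives, Exp1 alone changed the number most, with 6475 islands meeting the rule, while Exp2 alone gave 2901. The lowest number, 1318, came from regions over 10 kb from gene ends.

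Of the regions, 111 (4.71%) were 5 kb or wider, 17 were 8 kb or wider and 96 (4.08%) were under 1 kb. The widest lay between Cd83 and Jarid2 (chromosome 13, 44225201 to 44238800) and measured 13.6 kb, from an Exp1 island of 19.8 kb and an Exp2 island of 13.6 kb. It was 422 kb from Cd83, which encodes a surface protein of dendritic cells, and 492 kb from Jarid2, which encodes a partner of the Polycomb repressive complex. The next was 13.2 kb wide, 3.91 kb from Rab12 on chromosome 17 (islands of 15 and 13.2 kb). A region of 12.2 kb lay 25.3 kb upstream of Vash1, which encodes an inhibitor of blood vessel growth (islands of 17 and 12.2 kb). One of 11.2 kb lay between Akap7 and Epb41l2 (islands of 12.2 and 11.8 kb), and one of 10.8 kb between Amer2 and Spata13 (islands of 14.2 and 10.8 kb). Regions of 10.6 kb lay between Lsm3 and Slc6a6, the taurine transporter gene (islands of 12.6 and 10.6 kb), and between Chsy1 and Lrrk1, where the island was 10.6 kb in both experiments. All 10 widest regions were free of H3K9me3 in both experiments.

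The regions were compared with the other H3K4me1 runs that were free of H3K4me3 and H3K27me3, which lay inside genes over 2.5 kb from an end (10390) or within 2.5 kb of a gene end (3109). The intergenic regions were sparser than both. Intergenic space over 2.5 kb from genes measured 1344 Mb, of which 823 Mb held neither H3K4me3 nor H3K27me3 of either experiment. There were 2.86 regions per Mb of that unmarked intergenic space, against 12.2 runs per Mb of unmarked space inside genes and 18.5 per Mb near gene ends. The Y chromosome made up 83.2 Mb of the unmarked intergenic space and held 0 regions. On autosomes the densities were 3.42, 12.7 and 19.3 per Mb. H3K4me1 islands covered 2.99% of the unmarked intergenic space in Exp1 and 1.21% in Exp2 (2.10% ± 1.26, SD, n = 2). Inside genes they covered 14.7% and 6.64% (10.7% ± 5.72), and near gene ends 15.7% and 8.44% (12.0% ± 5.10). In each experiment the intergenic value was the lowest, and both intergenic values lay below all values of the other classes. With 2 experiments an exact two-sided permutation test between classes cannot go below 0.333, so no test was made.

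Islands behind the intergenic regions were the narrowest of the classes in each experiment. They had medians of 3.6 and 2.6 kb for Exp1 and Exp2 (3.10 kb ± 0.707, SD, n = 2). Those inside genes had 6.6 and 3 kb (4.80 kb ± 2.55) and those near gene ends 4.8 and 3 kb (3.90 kb ± 1.27). The classes were closer in Exp2 than in Exp1.

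H3K9me3, the heterochromatin mark, is the mark that did not choose the regions. It overlapped 36 of them in Exp1 (1.53%) and 15 in Exp2 (0.637%), or 1.08% ± 0.631 (SD, n = 2). Over all H3K4me1 runs free of H3K4me3 and H3K27me3 the shares were 0.896% and 0.315%. Of the unmarked intergenic space as a whole, H3K9me3 islands took up 11.9% in Exp1 and 6.50% in Exp2. The share of regions was thus below that of the space in each experiment. A region counts from 1 bp of overlap, while the space is counted in bases and includes the Y chromosome. The gap was not particular to the regions. Runs inside genes had shares of 0.808% and 0.241%, against 3.38% and 1.39% of their unmarked space. Runs near gene ends had 0.708% and 0.322%, also below their space. The intergenic share was the highest of the classes in each experiment. Islands of Exp2 alone that met the rule overlapped H3K9me3 of Exp2 at 5.96%, and islands of Exp1 alone overlapped H3K9me3 of Exp1 at 2.39%. These lists lack both the need for a shared run and the exclusion by marks of the other experiment, and the part of each was not tested. With shared runs and exclusion by marks found in both experiments only, the share was 1.90%.

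At 6 regions an H3K9me3 island was called in both experiments. One of 4 kb lay 68.2 kb downstream of Tmem17, and one of 1.6 kb lay 19.1 kb downstream of Ccdc85a. One of 1.8 kb lay between Mmadhc and Rnd3, and one of 2.2 kb was 161 kb from Actl7b in the interval between Klf4 and Actl7b. The others lay 11.3 kb upstream of Frem1 and 10.3 kb downstream of Nlrp4c. Starts and widths of H3K9me3 islands were multiples of 3000 bp, with median widths of 30 (Exp1) and 45 kb (Exp2), so an overlap does not place the mark on the region itself.

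Regions were found on all autosomes and were sparse on the X chromosome. Autosomes held 2341 regions, or 3.42 per Mb of unmarked intergenic space, from 2.15 on chromosome 3 to 5.80 on chromosome 11. The X chromosome held 14, or 0.256 per Mb, and the Y chromosome 0. The share of intergenic space that was unmarked was 48.5% on the X chromosome, within the range of the autosomes (38.8% to 68.7%). The other classes were sparse on the X chromosome too, with 0.864 runs per Mb of unmarked space inside genes against 12.7 on autosomes, and 1.93 against 19.3 near gene ends. Of all islands, 1.19% of H3K4me1 in Exp1 and 1.66% in Exp2 lay on the X chromosome, against 3.56% and 4.32% of H3K4me3 and 7.37% and 8.36% of H3K27me3. The labels do not give the sex of the mice, and its part in these values was not tested. Of the 14 X-linked regions, 9 lay within 1.6 Mb (11626001 to 13222200), in the intervals between H2al1j and Ddx3x around Bcor, a gene of a transcriptional corepressor, and Usp9x, a gene of a deubiquitinase. The group was singled out after its values were seen. Its Exp1 islands were 1.2 to 7 kb wide and its Exp2 islands 1.2 to 3.2 kb. Another X-linked region, of 2.2 kb, lay 3.91 kb from Ftx, a lncRNA gene of the X inactivation centre, in islands of 4.4 and 2.2 kb.

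**Figure D2:**
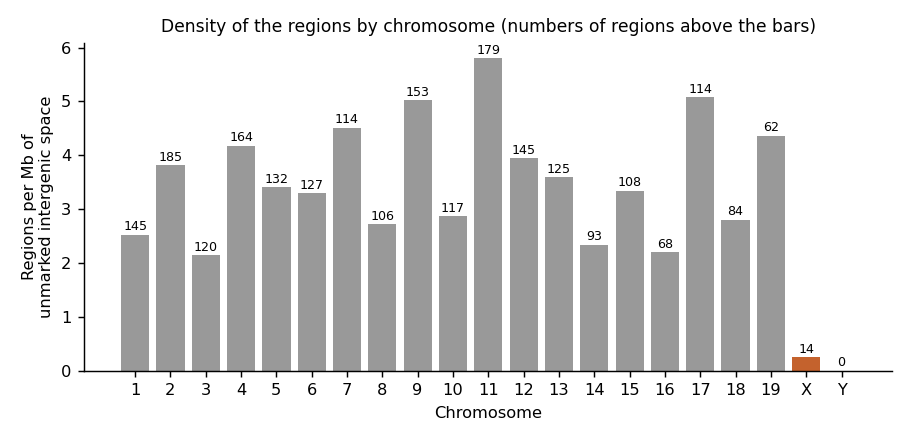
Intergenic distal regions per Mb of intergenic space over 2.5 kb from genes and free of H3K4me3 and H3K27me3 (bars), by chromosome, with the number of regions above each bar. The autosomes range from 2.15 to 5.80 per Mb, and the X chromosome, with 14 regions, stands at 0.256.

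Spacing was uneven. The median gap between neighbouring regions was 246 kb, with quartiles of 26 kb and 1018 kb and a range from 800 bp to 30.6 Mb. Of 2335 gaps, 379 (16.2%) were at most 10 kb, 871 (37.3%) at most 100 kb and 1745 (74.7%) at most 1 Mb. Joining regions at most 10 kb apart gave 289 chains of 2 or more, which held 668 regions (28.4%), while 1687 regions stood alone. There were 227 chains of 2 regions, 44 of 3, 10 of 4 and 8 of 5 or more. With a joining gap of 5 kb, 3 chains had 5 or more regions, and with 20 kb, 21 did. The 8 longest chains spanned 19 to 39.6 kb.

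The chain beside Ccdc167 on chromosome 17 (29720001 to 29757000) had 6 regions over 37 kb, the nearest 2.96 kb upstream of the gene, with Mdga1, an adhesion gene, on the other side. They came from 6 Exp1 islands of 2.2 to 6 kb and 5 Exp2 islands of 1.4 to 10.6 kb. The chain between Ide, which encodes the insulin-degrading enzyme, and Kif11, a mitotic kinesin gene, had 6 regions in 19 kb, cut by 5 Exp2 islands from 2 Exp1 islands. Upstream of Pde8b, a cyclic AMP phosphodiesterase gene, 5 regions in 31.2 kb came from 2 Exp1 islands, of 2.4 and 28.2 kb, and 5 Exp2 islands of 2.2 to 7.6 kb. Next to Glt28d2 on chromosome 3, 5 regions covered 23 kb of a 39.6 kb chain and again came from 2 Exp1 islands. These last 3 chains were long islands in Exp1 that separate islands of Exp2 cut into regions. No region of the 8 chains of 5 or more overlapped H3K9me3, and over all regions only 1.91% did in either experiment. A chain of 4 regions beside Msra, a methionine sulfoxide reductase gene, had 2 that did, in Exp1.

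Counted by the interval between neighbouring protein-coding genes, the regions fell into 1461 intervals. Of these, 980 held 1 region and 57 held 5 or more, with 343 regions in all. The interval from Ncam1 to Plet1 on chromosome 9 held 13 regions over 576 kb, and that from Cd83 to Jarid2 on chromosome 13 held 11 over 795 kb. The interval below Cadm1 held 10 over 383 kb, in a sequence of 526 kb without a protein-coding gene. Intervals with 8 regions were Tbc1d22a to Tafa5, Gm6569 to Adgrb1, Gadd45g to Diras2, and Cdh26 to 4930591A17Rik. Sh3bgrl2 to Elovl4, the latter a fatty acid elongase gene of photoreceptors, held 7. Among intervals with 6 were Hmx1 to Cpz, beside a homeobox gene of the developing eye, and Gm572 to Casz1, beside a zinc finger gene of retinal progenitors. Longer intervals offer more room for regions, and the 7 between Fam160a1 and Glt28d2 lay in only 84.5 kb.

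Most regions lay within 50 kb of a protein-coding gene. The median distance to the nearest one was 22.3 kb, with quartiles of 8.53 and 59.2 kb. Of the regions, 695 (29.5%) lay between 2.5 and 10 kb, 983 (41.7%) between 10 and 50 kb, 324 (13.8%) between 50 and 100 kb, 328 (13.9%) between 100 and 500 kb and 25 (1.06%) beyond 500 kb. Width did not follow distance: the median was 2.0 to 2.4 kb in all 5 bins, and Spearman's rho between width and distance was 0.0431 across regions, a description. For 1095 regions (46.5%) a lncRNA gene was nearer than any protein-coding gene. The strand of the nearest gene was known for 1842 regions, of which 1005 (54.6%) lay on the upstream side and 837 on the downstream side.

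**Figure D3:**
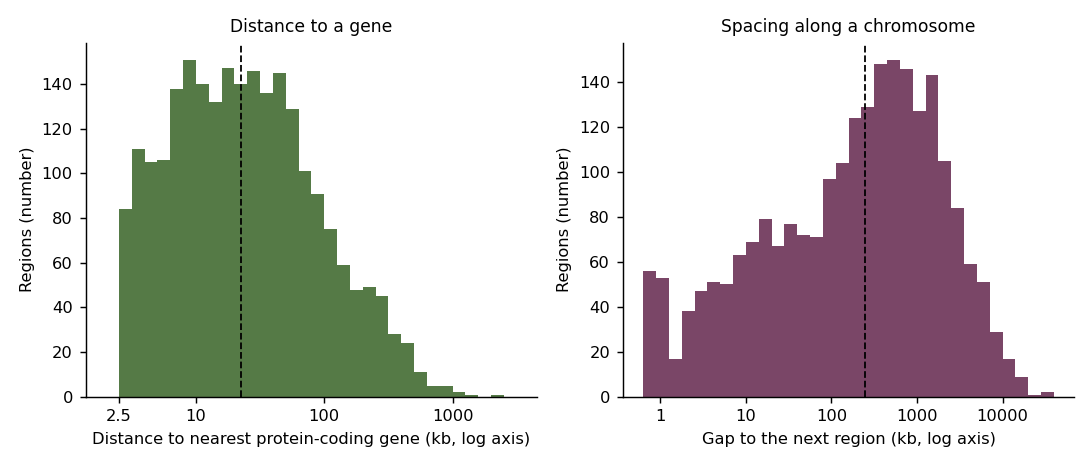
Left, number of regions by distance to the nearest protein-coding gene in kb on a log axis, and right, number by gap to the next region on the same chromosome in kb on a log axis. Dashed lines mark the medians, 22.3 and 246 kb. Distances start at the 2.5 kb of the rule and most lie under 100 kb, while the gaps peak above 100 kb with a shoulder of shorter values.

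The 25 regions farthest from protein-coding genes had a median width of 2.4 kb. None overlapped H3K9me3, and over all regions only 1.91% did in either experiment. The farthest, 0.6 kb wide, was 2112 kb from Celf4, an RNA-binding protein gene of neurons, and 35.8 kb from the lncRNA gene Gm33674. The stretch between Slc4a3, an anion exchanger gene, and Epha4, an ephrin receptor gene of axon guidance, held 4 of them, 556.6 to 891 kb from Slc4a3 and 2.4 to 5.2 kb wide. Upstream of Map3k7, a kinase gene of TGF-beta and cytokine signalling, 3 regions lay 542, 642 and 736 kb away. The widest of the 25 measured 6 kb and lay 577 kb upstream of Tbl1xr1, a corepressor gene. It came from islands of 11.8 and 6 kb and was 3.34 kb from the lncRNA gene Gm31610.

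Of the 3 other marks, H3K4me3 has the most islands, with 16761 in Exp1 and 20169 in Exp2, against 7743 and 4105 of H3K27me3 and 9690 and 5621 of H3K9me3. The nearest H3K4me3 island was a median of 24.6 kb away, the nearest H3K27me3 island 113.8 kb and the nearest H3K9me3 island 171.8 kb. Within 10 kb of a region lay H3K4me3 at 628 regions (26.7%), H3K27me3 at 175 (7.43%) and H3K9me3 at 137 (5.82%). Over all H3K4me1 runs free of H3K4me3 and H3K27me3 these shares were 30.3%, 4.26% and 3.61%. The nearest H3K4me1 run that did not meet the rule was a median of 19.6 kb away, and at 455 regions within 5 kb.

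Each region was assigned to the nearest protein-coding gene, which names its place and need not be the gene it acts on. Of 21887 protein-coding genes, 1632 were the nearest gene of at least 1 region (7.46%). Of these, 1186 had 1 region, 291 had 2 and 155 had 3 or more (0.708% of all genes), and those 155 held 587 regions (24.9%). Genes without unmarked intergenic space around them cannot be called. Of the 12141 genes with at least 1 kb of such space, 13.4% were called. A called gene had a median of 41.8 kb of that space, against 16.6 kb over all genes that had some.

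The nearest genes carried H3K4me3 more often than other genes did. An H3K4me3 island lay within 1 kb of the same gene end in both experiments at 1269 of the 1632 genes (77.8%), against 58.6% of all protein-coding genes and 63.6% of the uncalled genes with space. Taken by experiment, the share was 78.6% of called genes in Exp1 and 79.4% in Exp2 (79.0% ± 0.607, SD, n = 2), against 59.6% and 60.6% of all genes (60.1% ± 0.730). The shares of called and of all genes did not overlap between experiments. Among the 155 genes with 3 or more regions it was 81.3%. The regions had been chosen for the absence of H3K4me3 on themselves, not at the gene.

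H3K27me3, the Polycomb mark, lay at the ends of 101 nearest genes (6.19%), against 23.3% of all genes and 8.80% of the uncalled genes with space. H3K9me3 lay at 29 (1.78%), against 13.4% and 5.46%. Taken by experiment, H3K27me3 was at 9.99% and 8.64% of called genes and at 29.3% and 27.1% of all genes. Space under H3K27me3 could hold no region by the rule, so the uncalled genes with space are the closer comparison for this mark. H3K4me3 and H3K27me3 lay together at 68 nearest genes (4.17%), below the 6.68% of all genes and above the 3.69% of uncalled genes with space. Neither lay at 330 (20.2%), against 24.8% and 31.3%. H3K4me1 lay at the ends of 1201 (73.6%), against 54.5% of all genes and 55.0% of uncalled genes with space.

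The promoters of the nearest genes were richer in CpG than others. Of the genes, 17492 had a promoter in the RefSeq table, 1295 of them called, and the start used was the annotated gene end for 60.5% of the 17492. In the 250 bases before the start, called genes had a median GC content of 61.2%, against 55.2% over all genes and 56.4% over the 8297 uncalled genes with space. Their median ratio of observed to expected CpG was 0.714, against 0.537 and 0.595, and 64.0% of called genes had a ratio of at least 0.6, against 45.2% and 49.6%. The Sp1 box GGGCGG, itself of G and C, matched 56.5% of called promoters, 42.7% of all and 47.1% of uncalled ones with space. The TATA box TATAAA matched 7.49%, 12.4% and 10.1%. The CCAAT box matched 33.7% of called promoters and 36.5% of all, the OTX and CRX core TAATCC 5.33% and 5.95%, and the AP-1 motif TGANTCA 4.56% and 6.18%. These shares are a description of letters, and a match is not a bound site.

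Ncam1, the neural cell adhesion molecule gene, was nearest to the most regions, 12. The gene lies on chromosome 9, 49502129 to 49799393, and the regions were 65.8 to 233 kb beyond its end with the higher coordinate. They measured 1.2 to 6.6 kb, in Exp1 islands of 2 to 13.6 kb and Exp2 islands of 1.8 to 6.6 kb, and covered 40.2 kb. Cadm1, another adhesion gene on the same chromosome, had 8 regions that covered 26.4 kb, 0.8 to 5.2 kb wide. Tbc1d22a, a Rab GTPase activator gene, had 8 (25.4 kb), and so had the predicted gene Gm6569 (21.6 kb), whose ends carried H3K4me3 and H3K27me3. Ncam1, Cadm1 and Tbc1d22a had H3K4me3 and no H3K27me3 at their ends.

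Genes with 6 regions were Sh3bgrl2, Ccdc167, Jarid2, Rps24 and Rxra, and among those with 5 were Cd83, Glt28d2, Pde8b, Tnfaip3, Irf2bp2 and Gm9733. Of the regions of Sh3bgrl2, 4 lay within a single Exp1 island of 97.8 kb, the widest behind any region, and each matched an Exp2 island of 2.2 to 4.8 kb. Rxra, which encodes a retinoid X receptor, had 4 regions upstream and 2 downstream, 0.8 to 3 kb wide. Tnfaip3, an inhibitor gene of NF-kappa B signalling, had 3 regions on its upstream side and 2 downstream, of 1.4 to 8 kb, in Exp1 islands of 17.6 and 16.8 kb. Rps24, which encodes a ribosomal protein, had 6 regions spread from 10.2 to 138 kb downstream, in 6 Exp1 islands of 1.8 to 7.2 kb. Gm9733 differed from the other 14 leading genes in its ends, which carried H3K27me3 and H3K9me3 and no H3K4me3.

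**Figure D4:**
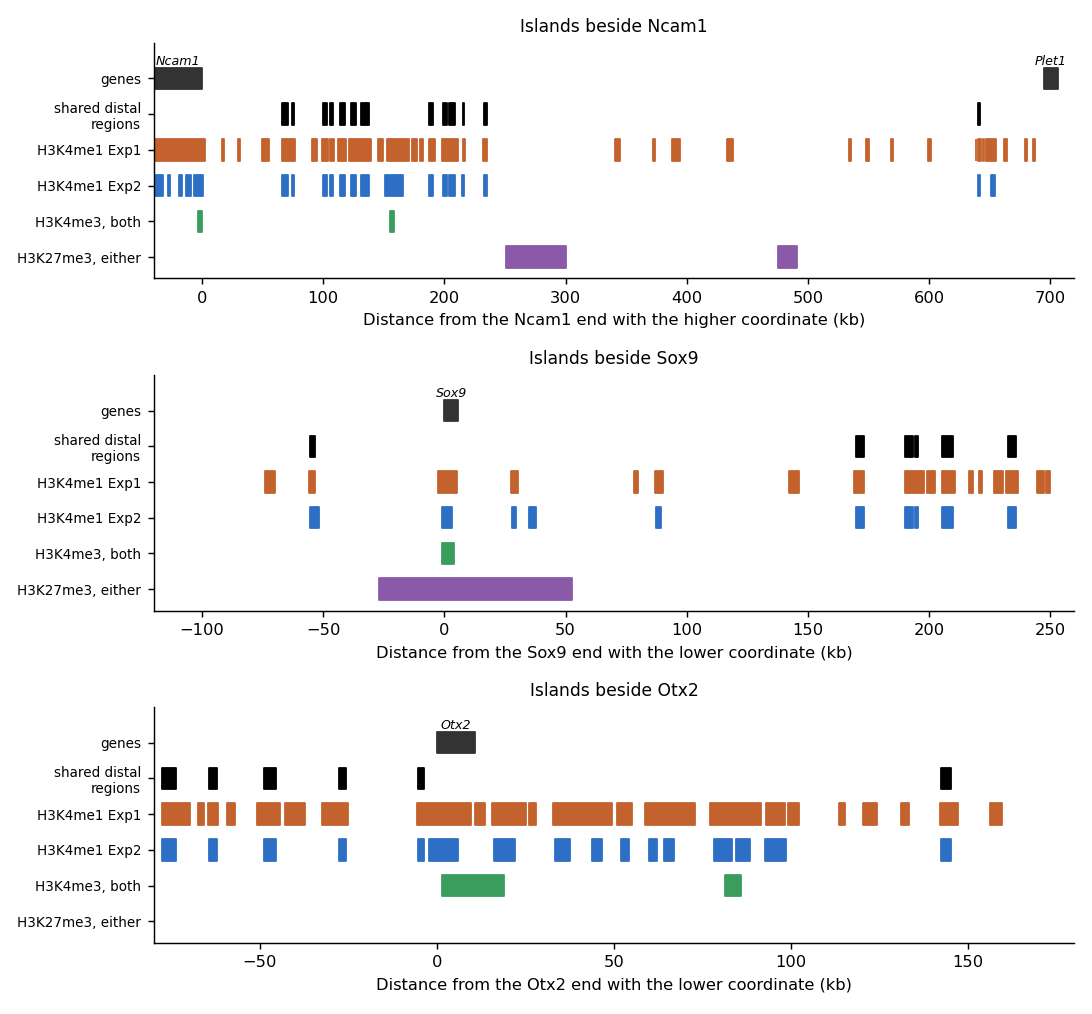
Islands beside Ncam1, Sox9 and Otx2, with distance from 1 end of the gene in kb (horizontal axis) and rows for genes, intergenic distal regions (black), H3K4me1 islands of Exp1 and Exp2, H3K4me3 runs of both experiments and H3K27me3 islands of either. The Ncam1 regions cluster from 65.8 to 233 kb beyond the gene, and most Otx2 regions lie on the downstream side of Otx2. The Sox9 regions lie outside the H3K27me3 island over the gene, as the rule requires of all regions.

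Among Müller glia genes 5 of 24 were called (20.8%), against 7.46% of all genes and 21.4% of microglia genes. Sox9, a transcription factor gene of glia and of retinal progenitors, had 5 regions on chromosome 11. One lay 53.4 kb from the gene on the side of lower coordinates and 4 lay 164, 185, 189 and 199.8 kb away on the other side. Their islands measured 2.6, 3.8, 7.8, 7.8 and 5.6 kb in Exp1, where the third and the fourth shared an island, and 3.6, 3.2, 3, 1 and 4.6 kb in Exp2. The ends of Sox9 carried H3K4me3 and H3K27me3. Slc1a3, which encodes Glast itself, had 2 regions downstream, 27.3 and 32.1 kb away and 2.2 and 2 kb wide. A single Exp1 island of 7.6 kb held both. Its promoter, printed above, carried H3K4me3 in both experiments.

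Hes1, a Notch target gene, had 2 regions, 60.4 kb away on one side and 118 kb on the other. Prdx6, a peroxiredoxin gene, had 1 at 9.39 kb. Sox2, a progenitor and glial factor gene, had 1 of 1 kb, 432 kb away, in islands of 1.4 and 1.2 kb. The nearest region to Glul, the glutamine synthetase gene of Müller glia, was 194 kb away and belonged to Rgs8. Rlbp1, the gene of a retinaldehyde-binding protein, and Pax6, a master gene of eye development, had no unmarked intergenic space of their own. Aqp4, a water channel gene of glia, had 66.1 kb of such space and no region. Of the nuclear factor I genes, Nfib had 1 region at 85.8 kb and Nfia had none in 412 kb of space. Müller glia genes were called in 3 cases where a run had to fill at least 50% of each island, and in 10 with Exp1 alone.

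Retinal progenitor and eye field genes held the highest share of the 39 lists, 10 of 16 (62.5%), against 7.46% of all genes. Of those with unmarked space 71.4% were called, against 13.4% of all genes with such space. By density the list was not the highest, with 5.34 regions per Mb of that space, against 5.47 for Müller glia and 15.4 for cones. Hes1, Six3 and Mki67 had 2 regions each, and those with 1 included Meis1, Rax, Lhx2, Sox2, Hes5 and Ccnd1. Six3, a homeobox gene of the eye field, had a region 49.8 kb upstream (2 kb, islands of 2 and 2.4 kb) and another 3.61 kb downstream (2.2 kb, islands of 8.8 and 2.2 kb). Lhx2, a homeobox gene kept in Müller glia, had a region of 1.6 kb 53.9 kb downstream. Hes5, another Notch target gene, had a region of 2.2 kb 5.63 kb upstream, and Meis1 had one 184 kb upstream. The regions of Mki67, a proliferation marker gene, lay 18.8 and 172 kb upstream, and the nearer overlapped H3K9me3 in Exp2. Several of these genes, such as Hes1 and Sox2, also stand in other lists. With islands at or below the median p-value of their file, 6 of the 16 genes were called.

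Genes of retinal neurons were called in shares from 0 to 16.7%, against 7.46% of all genes. Of 25 rod genes only Rp1, a gene of the photoreceptor axoneme, was called, or 4.0%, with a region of 2.4 kb at 5.73 kb, though 22 carried H3K4me3. Nrl, the rod fate gene, had 4.02 kb of unmarked space, and its nearest region was 205 kb away. Crx, a photoreceptor factor gene, had 9.39 kb of space and no region. Of 13 cone genes 2 were called. Thrb, a thyroid hormone receptor gene, had 3 regions, 79.6, 98.4 and 226 kb upstream, and Pde6h, a cone phosphodiesterase gene, had 1 at 37.3 kb.

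Of 16 bipolar cell genes 2 were called. Otx2, a homeobox gene of photoreceptor and bipolar fate, had 3 regions on its downstream side, 3.58, 25.8 and 45.6 kb away, and 1 that lay 132 kb upstream. They measured 1.8, 1.8, 3.2 and 2.6 kb, each the whole of its Exp2 island, in Exp1 islands of 15.2, 7.4, 6.4 and 5.2 kb. Among 20 ganglion cell genes Elavl4 was called, among 6 horizontal cell genes Prox1, and among 13 amacrine cell genes 0. Per Mb of unmarked space, the lists held 15.4 regions for cones, 7.98 for neurogenic genes, 7.87 for astrocytes and oligodendrocytes, 6.21 for microglia, 5.47 for Müller glia, 5.34 for progenitors, 5.01 for rods and 4.67 for bipolar cells. They held 2.46 for endothelium and pericytes, 2.2 for horizontal cells, 1.48 for pigment epithelium, 0.586 for ganglion cells and 0 for amacrine cells. Over all genes the value was 2.86, and on autosomes alone 3.42. Rod genes thus had few regions in little space, 0.199 Mb in all, and ganglion cell genes few in 1.71 Mb.

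Neurogenic genes were called in 2 of 16 cases (12.5%), against 7.46% of all genes. Dll1, a Notch ligand gene, had 2 regions, 22.0 and 119 kb downstream, and Neurod4 had 1, 13.3 kb upstream. Atoh7 had no unmarked space, and Neurog2, a proneural gene, had 6.18 kb and no region. The ganglion cell factor gene Pou4f2 had 26.0 kb and none.

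Markers of cells other than Müller glia and retinal neurons were called too. Of 14 microglia genes 3 were called (21.4%), against 7.46% of all genes, and 3 of the 14 carried H3K4me3 at a gene end. Among genes with unmarked space the share was 33.3% for microglia and 26.3% for Müller glia, against 13.4% over all genes. Ptprc, the CD45 gene of leukocytes, had regions 89.1 and 405 kb downstream, and C1qb, a complement gene, had 1 of 4.6 kb at 14.7 kb. Kdr and Cdh5 were the called genes among 14 of endothelium and pericytes, Mbp and Pdgfra among 12 of astrocytes and oligodendrocytes, and Tyrp1 among 10 of pigment epithelium. Aif1 had 2.34 kb of unmarked space and Pecam1 33.1 kb, and both had 0 regions. Rpe65 had no such space, so it could not be called.

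**Figure D5:**
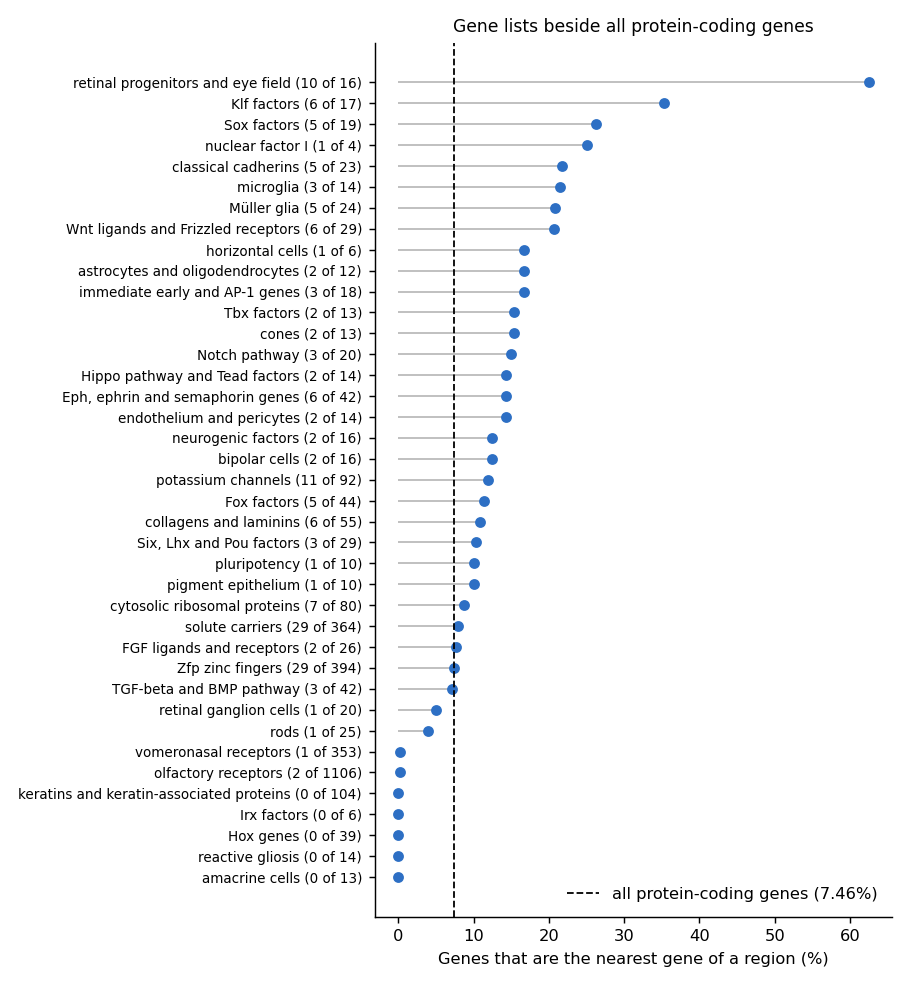
Share of the genes of each list that are the nearest protein-coding gene of at least 1 region, in percent, with the number of genes called and the size of the list in the labels. The dashed line marks the 7.46% of all protein-coding genes. The progenitor list stands at 62.5% and olfactory receptors, vomeronasal receptors and keratins lie near 0.

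Among signalling genes, 3 of 18 immediate early and AP-1 genes were called (16.7%, against 7.46% of all genes). Fos, whose promoter is printed above, had 4 regions, 4.89 and 29.9 kb on its upstream side and 19.9 and 44.9 kb on the other. They measured 7.2, 2.6, 2.2 and 3.8 kb, in Exp1 islands of 18.4, 16.2, 3.2 and 4.2 kb and Exp2 islands of 7.2, 2.6, 2.4 and 3.8 kb. The nearest was thus the widest of the 4. Its Exp1 island, of 18.4 kb, had the same width as the Exp1 island over the Fos promoter window. Both may be a single island that reaches the promoter, which was not tested. Batf and Nr4a3 had 1 region each. The Notch pathway had 3 of 20 (15%, Hes1, Dll1 and Hes5), the Hippo pathway 2 of 14 (14.3%, Tead1 with 2 regions and Mob1b with 1) and Wnt ligands and Frizzled receptors 6 of 29 (20.7%). FGF genes, with 2 of 26 (7.69%), and TGF-beta and BMP genes, with 3 of 42 (7.14%), were near the share of all genes. Of 14 reactive gliosis genes 0 were called.

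Of transcription factor families, Klf factors were called in 6 of 17 cases (35.3%) and Sox factors in 5 of 19 (26.3%), against 7.46% of all genes. By density they lay closer to all genes. Per Mb of unmarked space the Klf, Sox and Fox lists held 3.72, 3.53 and 4.55 regions, against 2.86 over all genes and 3.42 on autosomes. Klf6 had 2 regions, 168 and 189 kb downstream, and Klf13 had 2, 16.8 and 26.6 kb downstream. Fox factors were called in 5 of 44 cases, led by Foxo1, a target of insulin signalling, with 1 region 56.7 kb upstream and 4 from 35.5 to 293 kb downstream. Irx factors were called in 0 of 6. The 39 Hox genes had no unmarked intergenic space, so none could be called. Zfp zinc finger genes were at the background, 29 of 394 (7.36%).

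The shares of larger families lay on both sides of the 7.46% of all genes. Solute carriers were called in 29 of 364 cases (7.97%), ribosomal protein genes in 7 of 80 (8.75%), potassium channels in 11 of 92 (12.0%) and classical cadherins in 5 of 23 (21.7%). Per Mb of unmarked space these lists held 3.65, 6.66, 2.72 and 0.863 regions, against 2.86 over all genes. Cadherins thus had a high share called in 13.9 Mb of space and a density below that of all genes. The potassium channel genes Kcnh2 and Kcnd3 had 4 and 3 regions. Olfactory receptor genes were called in 2 of 1106 cases (0.181%), vomeronasal receptor genes in 1 of 353 (0.283%) and keratin genes in 0 of 104. Olfactory receptor genes had 3.40 Mb of unmarked space and 0.589 regions per Mb of it. The median number of regions per gene was 0 in all lists except the progenitor list, where it was 1, and 0 over all genes. Lists were described by counts, and no test was made of them.

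Regions near the 2.5 kb limit resembled those just outside it. There were 100 regions whose nearest gene was 2.5 to 3 kb away, with a median width of 2.2 kb and islands of 4 and 2.6 kb. The 96 runs at 2 to 2.5 kb that missed the rule had a median width of 2.2 kb and islands of 3.6 and 2.8 kb. The run closest to the limit from outside lay 2494 bp from Rp1l1, a photoreceptor gene, and the closest inside lay 2518 bp from Kif1b, a kinesin gene.

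Other annotated features were few. The regions contained or touched 62 genes of types that the rule did not use, in 63 regions, namely 40 pseudogenes, 8 transcribed pseudogenes, 5 snRNA genes, 4 genes of miscellaneous RNA, 3 snoRNA genes, the miRNA gene Mir8096 and 1 of another type.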

How the data were processed

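ChIP-seq was performed on cross-linked chromatin of Glast+ cells with single-end reads, per the labels' protocols. The 10 libraries include 2 inputs, not analysed here. For each ChIP library the authors deposited 1 list that gives every island's position and its p-value, and no source used here says if the value is corrected. Per the submitters' processing notes, the build was mm10 and the tools were SICER (the island caller), BWA 0.7.5a, bedtools 2.17, SAMtools 1.3.1 and FastQC. The settings and the control of SICER are not given in sources used here. The authors' p-values were used only to describe islands and to filter them within a list. No read counts are in the files, so no interval was computed.

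Runs shared by both H3K4me1 lists were found base by base, with an overlap of 1 bp or more for exclusion, in Python 3.11.15 with pandas 2.3.3, numpy 2.4.6, scipy 1.17.1 and matplotlib 3.10.9. Genes came from the RefSeq table of GRCm38.p6, which has mm10 coordinates, and strands from the RefSeq promoter table for 17492 of 21887 protein-coding genes. Distances are bases between a region and a gene. Regions at most 10 kb apart formed a chain. Marks at a gene were counted within 1 kb of the same gene end in both experiments. The 39 gene lists matched in full. The code was tested on 20 simulated sets with 292 regions, and 0 differed from base-by-base counting.

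With 2 experiments per mark an exact permutation test of 2 against 2 cannot go below 0.333, so no test was made. Experiments stand for samples, and their spread may be technical. The regions, the lists and the tests were chosen with earlier results of these data known. Genes were named by rule: the 15 with the most regions, those beside the 10 widest regions and the 5 longest chains, up to 4 per list with the most regions, a fixed set (Slc1a3, Glul, Rlbp1, Sox9, Aqp4, Sox2, Pax6, Nfia, Nfib, Nrl, Crx, Otx2, Atoh7, Neurog2, Pou4f2, Aif1, Pecam1 and Rpe65) and small RNA genes in regions. Genes named for intervals, the X chromosome, H3K9me3, distance and the 2.5 kb limit, and further members of the progenitor list, were chosen with their values in view. As alternatives, the regions were rebuilt with each experiment alone, other exclusions, distances, overlaps, p-value and width filters, merged islands, no sex chromosomes, other chain gaps and a replicate block. Some results are not reported here.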

Additional observations from a re-analysis of the deposited data

How the results depend on the processing

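Of 133 values recomputed under alternatives, 106 moved by no more than the spread between experiments or, for counts, stayed within 1.5 times, and 27 moved further. The cause was not tested. The spread was the SD of the values from each experiment alone, which are among the 133, or for width that of the island medians. For the H3K9me3 share this SD was 2.52, above the share itself (1.08%), so no fall could count as a move. The 106 and 27 thus follow in part from how the spread was set. With 1 experiment alone the number of regions was 2901 to 6475, the median gap 87.8 to 274.2 kb, the median distance to a gene 27.1 to 31.9 kb, the share with H3K9me3 2.39% to 5.96%, the share of nearest genes with H3K4me3 75.3% to 76.5%, the genes called 2007 to 3411 and the Müller glia genes called 7 to 10. Over 10 kb from gene ends there were 1318 regions, a median gap of 496.6 kb, a median distance of 40.2 kb and 929 genes called. Where a run had to cover 50% or more of each island, there were 1509 regions, a gap of 532.6 kb and 3 Müller glia genes. With islands at or below the median p-value of their file there were 1356 regions, a gap of 465.3 kb, 1023 genes called, 80.4% of them with H3K4me3, and 6 progenitor genes. Whole merged islands had a median width of 3.6 kb and a gap of 388 kb. Excluding only H3K4me3 or H3K27me3 found in both experiments gave 76.6% of nearest genes with H3K4me3. A gap of 5 kb gave 3 chains of 5 or more regions and 20 kb gave 21. Requiring whole islands to meet the rule, chosen after seeing the data as was the progenitor count, gave 1994 regions and a median distance of 26.1 kb.

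The experiment number is shared between marks in the labels. In a replicate block, where an H3K4me1 island was excluded by the marks of its own experiment before runs were formed, 2179 regions met the rule and 1.10% overlapped H3K9me3. The depth of the libraries is unknown, so a region absent from an experiment may be below its detection.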
